A study of Mus musculus with 2 samples.

Results

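The cells described here are T cells of mouse visceral adipose tissue (VAT) that carry transcripts of natural killer (NK) cell receptors and neither CD8 nor CD4, named NK-receptor T cells below. They were chosen by their own counts of unique molecular identifiers (UMIs, the distinct mRNA or antibody-tag molecules counted in a cell). A member had at least 500 gene UMIs, at least 200 genes and at most 25% mitochondrial UMIs. It also had at least 2 UMIs of Cd3e, Cd3d and Cd3g together, at least 2 of Klra1, Klra7 and Klrb1c together, 0 of Cd8a, Cd8b1 and Foxp3, at most 2 of Trdc, under 5 of C1qa, C1qb and C1qc together and under 10 of the CD4 antibody. The rule was met by 359 of 25198 cells, 124 of 12474 in the normal water (NW) library and 235 of 12724 in the antibiotics (ABX) library. Since the rule reads the counts of the same cells, the shares of members and the levels of the rule's genes are a description and not a test.

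Both libraries were made from CD45+ cells of VAT of 15 weeks old wildtype C57BL/6 mice, and they differ by treatment, Normal water or Antibiotics. For its antibiotic experiments, the study's methods name ampicillin, streptomycin, colistin and vancomycin in drinking water. The CD45+ cells were separated with magnetic beads, labelled with oligonucleotide-tagged antibodies and captured on the BD Rhapsody platform, and the number of mice behind each library is not given in the sources used here. With 1 library per condition no spread between mice could be measured, so no p-value is given, and every interval is a 95% interval that covers counting error only and is too narrow for the spread between cells.

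NKT cells are αβ T cells that also carry NK cell receptors. The invariant type joins the Vα gene Trav11 with a few Vβ genes, recognizes lipids on CD1d and develops under the transcription factor PLZF, encoded by Zbtb16, while other T cells may gain NK receptors with activation or memory. Klra genes encode the Ly49 receptors, most of which inhibit the cell on binding MHC class I, and Klrb1c encodes NK-1.1. In adipose tissue NKT cells are known as regulators of macrophages and Treg cells.

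The Ly49 receptor genes of these cells are neighbours on chromosome 6. Klra1 (Ly49A), Klra7 (Ly49G) and Klra9 (Ly49I), which inhibit, were present in NK-receptor T cells. Klra4 (Ly49D) and Klra8 (Ly49H), which activate, were lower in them than in NK cells. Klra9 was also detected in a smaller share of members (43.5% in NW and 37.9% in ABX) than of NK cells (60.1% and 64.5%). The RefSeq promoter windows of the 5 genes, 250 bases before to 50 bases after the annotated start in GRCm38.p6, are shown because the levels of these close relatives are compared below. Klra1 and Klra7 belong to the members' rule, the choice of NK cells used Klra8, and Klra7 did not differ from NK cells in both libraries. These choices partly set which of the 5 genes differ. The windows lie on the minus strand at chr6:130386825-130387124 for Klra1, chr6:130233273-130233572 for Klra7, chr6:130193063-130193362 for Klra9, chr6:130067222-130067521 for Klra4 and chr6:130129849-130130148 for Klra8. Capitals mark a run of 17 bases, the longest shared by at least 3 of the 5 windows.

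Klra1: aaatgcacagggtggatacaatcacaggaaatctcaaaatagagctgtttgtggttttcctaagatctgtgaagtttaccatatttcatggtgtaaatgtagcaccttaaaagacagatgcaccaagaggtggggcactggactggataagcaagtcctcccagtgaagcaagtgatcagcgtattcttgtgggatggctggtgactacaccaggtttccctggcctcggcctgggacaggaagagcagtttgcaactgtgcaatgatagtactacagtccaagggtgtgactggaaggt
Klra7: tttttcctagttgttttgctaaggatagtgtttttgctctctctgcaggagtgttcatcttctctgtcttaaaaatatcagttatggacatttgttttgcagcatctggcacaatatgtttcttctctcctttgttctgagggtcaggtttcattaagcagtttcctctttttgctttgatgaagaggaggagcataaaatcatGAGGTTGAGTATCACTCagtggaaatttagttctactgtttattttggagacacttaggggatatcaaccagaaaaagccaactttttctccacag
Klra9: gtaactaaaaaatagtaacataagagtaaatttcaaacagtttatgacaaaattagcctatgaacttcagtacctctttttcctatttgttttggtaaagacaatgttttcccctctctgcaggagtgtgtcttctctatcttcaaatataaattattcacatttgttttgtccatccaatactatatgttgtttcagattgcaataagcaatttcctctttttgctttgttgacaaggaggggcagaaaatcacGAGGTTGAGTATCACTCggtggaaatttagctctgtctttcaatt
Klra4: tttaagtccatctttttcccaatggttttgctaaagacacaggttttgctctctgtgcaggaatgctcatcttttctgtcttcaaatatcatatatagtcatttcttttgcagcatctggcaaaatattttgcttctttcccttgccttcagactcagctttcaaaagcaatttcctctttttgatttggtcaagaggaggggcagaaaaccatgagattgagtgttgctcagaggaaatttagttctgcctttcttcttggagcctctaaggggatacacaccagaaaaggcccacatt
Klra8: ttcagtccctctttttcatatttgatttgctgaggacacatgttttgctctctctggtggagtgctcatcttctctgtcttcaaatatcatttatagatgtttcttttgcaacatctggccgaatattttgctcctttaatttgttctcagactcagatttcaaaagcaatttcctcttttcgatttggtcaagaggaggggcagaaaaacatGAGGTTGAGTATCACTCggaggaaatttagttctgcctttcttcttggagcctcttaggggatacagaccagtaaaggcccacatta

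The shared run GAGGTTGAGTATCACTC was in the windows of Klra7, Klra9 and Klra8 and in neither of those of Klra1 and Klra4, and 3 of 27025 promoter windows (0.0111%) held it on either strand. The run was picked from these windows, and the genes it was picked from are part of that count, so its rarity is not an independent result. It was present in windows of genes that the members held and in that of Klra8, detected in 1.61% and 4.26% of NW and ABX members. Aligned end to end, the window of Klra4 shared 86.6% of bases with that of Klra8 and 81.8% with that of Klra7. The windows of Klra1 and Klra9 shared 50.2% to 54.8% with each other and with the rest. The run of 17 bases began at position 5 from the annotated start in Klra9, but at -46 in Klra7 and -37 in Klra8. The window of Klra9 is thus shifted against these, and its percentages cannot show how alike its promoter is to theirs. Of the 5 windows, that of Klra1 held the letters TGTGGT, a Runx motif found on either strand in 16.9% of all windows, and TCACACC, a T-box motif found in 3.96%. The transcripts of these genes are also alike. The longest coding transcripts of Klra1 and Klra4 shared 91.6% of aligned bases with an identical run of 78 bases, and those of Klra9 and Klra8 shared 88.3% with a run of 106. How reads were divided among such relatives is not given in the sources used here, so each Klra level carries that uncertainty.

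The NW library held 79855126 gene UMIs and the ABX library 64801767, and the cells that passed the filters had medians of 5092 and 3845.5 UMIs. NK-receptor T cells had medians of 3638.5 UMIs in NW (994 to 11834) and 3356 in ABX (1439 to 19779), close to the medians of NK cells (3230 and 3262.5) and CD8 T cells (3515 and 3658). There were 371 barcodes listed in both libraries, and 2 NW and 1 ABX members carried such a barcode. Exactly 2 NK receptor UMIs were counted in 28 NW and 37 ABX members, and exactly 2 CD3 UMIs in 10 and 21. Just outside the rule, 27 and 45 further cells past every other limit had 1 NK receptor UMI. In those cells Trac was detected in 77.8% and 68.9%, Ly6c2 in 77.8% and 62.2% and Il7r in 44.4% and 68.9%, against 83.1% and 81.7%, 94.4% and 91.9% and 70.2% and 56.6% of the members.

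NK cells, ILC1-like cells, CD8 T, CD4 T and γδ T cells were set by like rules from the same files, all with under 5 C1q UMIs. NK cells had 0 CD3 UMIs, at least 1 Ncr1 UMI and at least 1 Eomes or Klra8 UMI (198 NW and 214 ABX cells), and ILC1-like cells had the same with 0 Eomes and Klra8 UMIs (108 and 178). CD8 T cells had at least 2 CD3 and at least 2 CD8 UMIs (113 and 180), γδ T cells at least 2 CD3 and over 2 Trdc UMIs (240 and 282), and CD4 T cells at least 2 CD3 and 10 CD4 antibody UMIs with 0 CD8 and Foxp3 UMIs (488 and 475). T cells that passed every other limit of the members' rule with 0 UMIs of Klra1, Klra7 and Klrb1c (171 and 318) served as T cells without NK receptor UMIs.

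The label of T cells with NK receptors was first checked against genes outside the rule. Trac, the constant gene of the TCR α chain (chr14:54220521-54224206, GRCm38), was detected in 83.1% and 81.7% of the NW and ABX members. The share was 4.04% and 4.67% in NK cells, which should lack it and thus show the level of free RNA, 21.7% and 19.5% in γδ T cells and 90.3% and 93.9% in CD8 T cells. Thinned to 1000 UMIs per cell, which left out 1 NW member, the shares were 51.6% and 51.1% in members, 1.58% and 1.61% in NK cells and 55.7% and 59.8% in CD8 T cells. UMIs of TCR β variable genes were found in 24 of 124 NW members (19.4%, 12.8 to 27.4) and 47 of 235 ABX members, as against 26 of 113 and 35 of 180 CD8 T cells, and in 0 of 198 and 0 of 214 NK cells, which allows shares of up to 1.52% and 1.40%. At the level of RNA the members thus carried the αβ TCR that their label implies.

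The features of invariant NKT cells were scarce. Trav11 was detected in 0 of 359 members, which allows a share of up to 0.836%, but only 3 and 8 UMIs of all Vα genes were counted in NW and ABX members, so the depth hardly allowed its detection. Of the Vβ UMIs, 14 of 31 (45.2%, 27.3 to 64.0) in NW and 20 of 65 (30.8%, 19.9 to 43.4) in ABX came from the Trbv13, Trbv29 and Trbv1 genes that invariant NKT cells use. In CD8 T cells these were 4 of 36 (11.1%, 3.11 to 26.1) and 16 of 50 (32.0%, 19.5 to 46.7). Zbtb16 was detected in 9.68% and 3.83% of members, against 20.5% and 19.5% of T cells without NK receptor UMIs, 34.2% and 20.2% of γδ T cells and 0.885% and 3.33% of CD8 T cells. None of the 13 listed invariant NKT features reached 100 UMIs over both libraries. These markers do not carry the name NKT in its strict sense, and the cells are called NK-receptor T cells.

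The surface antibodies, which the rule did not use except for CD4, were counted in the same cells. The TCRβ antibody had a median of 15 UMIs in NW members (0 to 81) and 13 in ABX members (0 to 919). NK cells, which lack the receptor, had medians of 8 and 7, γδ T cells 9 and 8, CD4 T cells 47 and 35, and CD8 T cells 59 and 46.5. T cells without NK receptor UMIs had medians of 16 and 16, and macrophages, which do not make the receptor, had 18 and 20. The members' medians thus lay above those of NK and γδ T cells, below those of CD4 and CD8 T cells and below those of macrophages. At least 15 TCRβ UMIs were counted on 68 of 124 NW members (54.8%, 45.7 to 63.8) and 98 of 235 ABX members (41.7%, 35.3 to 48.3), compared with 18.2% and 20.1% of NK cells, 52.6% and 52.8% of T cells without NK receptor UMIs, 59.9% and 62.6% of macrophages and 91.2% and 87.2% of CD8 T cells. The CD3 antibody had medians of 5 and 5 in members, 4 and 3.5 in NK cells, 8 and 6 in CD8 T cells and 12 and 10 in γδ T cells. The NK-1.1 antibody did not separate the populations: its medians were 21 and 18 in members, 26 and 20.5 in NK cells and 20 and 15 in CD8 T cells, of which 8.85% and 12.2% had a Klrb1c UMI. CD44, a marker of antigen-experienced T cells, had medians of 93 and 78 in members, 35 and 32 in NK cells and 89 and 85.5 in CD8 T cells. The medians were 93.5 and 73.5 in ILC1-like cells and 101 and 85 in all cells. They were higher in T cells without NK receptor UMIs (178 and 158.5), CD4 T cells (173 and 154) and γδ T cells (212 and 182.5).

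**Figure D1:**
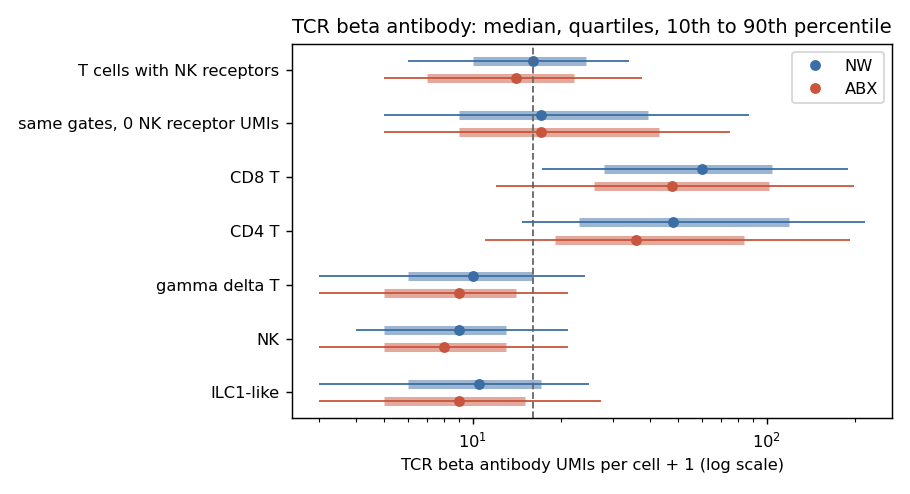
TCRβ antibody UMIs per cell (+ 1, log scale) in NK-receptor T cells and 6 other populations, by library, with points for medians, thick lines for quartiles, thin lines for the 10th to 90th percentile and a dashed line at 15 UMIs. The members' medians of 15 in NW and 13 in ABX lie between those of NK cells (8 and 7) and CD8 T cells (59 and 46.5). Macrophages, which do not make the receptor and are not drawn, had higher medians than the members (18 and 20).

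NK-receptor T cells differed in which receptors they held. Klrb1c was detected in 88.7% and 90.6% of NW and ABX members, Klra1 in 54.8% and 59.1% and Klra7 in 54.0% and 56.2%, which the rule partly fixes. Both Klra1 and Klra7 were seen in 42 of 124 and 93 of 235 members, Klra1 without Klra7 in 26 and 46, Klra7 without Klra1 in 25 and 39, and neither in 31 and 57. Klra9, which the rule did not use, was detected in 43.5% and 37.9% of members, 60.1% and 64.5% of NK cells and 1.17% and 3.46% of T cells without NK receptor UMIs, with levels of 543 and 546 CPM (the UMIs of a gene summed over the cells of a population in a library, per 1000000 gene UMIs of these cells) in members and 879 and 979 in NK cells. Klra4 was detected in 0.806% and 2.98% of members and 46.0% and 46.3% of NK cells, and Klra8 in 1.61% and 4.26% and 63.6% and 61.2%. Klra1 went the other way, with 10.6% and 10.7% of NK cells and 0.926% and 1.12% of ILC1-like cells. Any Klra gene was seen in 83.1% and 82.6% of members.

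Against NK cells, NK-receptor T cells held more of the T cell genes and less of several cytotoxic genes. A gene was counted as different where its CPM differed by at least 1.5-fold in both libraries with intervals that exclude 1. Of 2224 genes with at least 100 UMIs in each library over the 2 populations compared, 51 (2.29%) were higher and 113 (5.08%) lower in the members. Trac stood at 863 and 783 CPM in NW and ABX members and 13.5 and 12.9 in NK cells, with log2 differences of 6.0 and 5.92. For Trbc2, the constant gene of the β chain, the log2 differences were 2.75 and 3.19. Il7r, the receptor of the survival cytokine IL-7, stood at 1359 and 865 CPM against 141 and 168 (3.27 and 2.36), and Cxcr6, a chemokine receptor of tissue-resident lymphocytes, at 324 and 299 against 27.0 and 23.3 (3.59 and 3.68). Ikzf2, which encodes Helios, had differences of 2.47 and 2.24, Itga1, the collagen-binding integrin α1, of 2.65 and 2.14, and Ly6c2 of 1.70 and 0.95. Slfn1 and Inpp4b were also among the 10 genes with the highest ratios, at 6.11 and 4.81 and at 3.43 and 3.23.

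Gzma, the granzyme abundant in NK cells, stood at 4.24 and 50.4 CPM in NW and ABX members and 2665 and 2512 in NK cells, with log2 differences of -9.30 (-12.34 to -7.44) and -5.64 (-6.09 to -5.22). The NW values of Gzma, Klra4 and Klra8 rest on 2, 1 and 2 UMIs in the members. Perforin (Prf1) had log2 differences of -2.95 and -3.45, the integrins Itgam and Itgax of -3.0 and -2.96 and of -2.98 and -2.83, and Klra4 of -8.73 and -5.57. Klri2 and Klrb1b, receptors of the same gene complex, were lower at -4.62 and -3.77 and at -2.48 and -2.47, and Car2, a carbonic anhydrase, at -4.55 and -3.69. Eomes (-4.94 and -4.01), Klra8 (-8.73 and -5.49) and Ncr1 (-2.33 and -2.53) were lower as well, but the choice of NK cells used these genes. Of the cytotoxic granule list, 6 of 11 genes tested were lower and 0 higher (medians -0.88 and -1.0, against -0.09 and -0.08 over all genes tested). Of the NK receptor list 14 of 22 were lower and 1, Klra1, was higher, while Klra7, Klrk1 and Klrc1 did not differ in both libraries. The lower genes include Klra8 and Ncr1, used to choose NK cells, and Klra1 belongs to the members' rule, so the choices partly set this count.

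The 8 NK cell markers of the marker list summed to 1151 CPM in NW and 1171 in ABX members and to 9285 and 8224 in NK cells. Of these markers, Ncr1, Eomes and Klra8 were used to choose the NK cells. Ncr1, the NKp46 receptor of NK cells and ILC1, was detected in 35 of 124 (28.2%, 20.5 to 37.0) and 69 of 235 (29.4%, 23.6 to 35.6) members, in 0 of 113 (which allows up to 2.65%) and 2.22% of CD8 T cells and in 0.585% and 0.629% of T cells without NK receptor UMIs. Of the members with Ncr1, 26 of 35 (74.3%, 56.7 to 87.5) and 50 of 69 (72.5%, 60.4 to 82.5) also had Trac, against 86.5% and 85.5% of those without. The 7 macrophage markers summed to 895 and 672 CPM in members and 876 and 560 in NK cells, the 4 B cell markers to 136 and 195 against 10.5 and 80.1, the 3 neutrophil markers to 134 and 8.77 against 10.5 and 9.05, and the 5 dendritic cell markers, among them the MHC class II gene H2-Ab1, to 1425 and 1622 against 600 and 1246. In NW the B cell and the neutrophil sums each rested mostly on 1 member, with 59 UMIs of either list in its highest cell. The part of wells that held a T cell together with an NK cell was not tested.

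**Figure D2:**
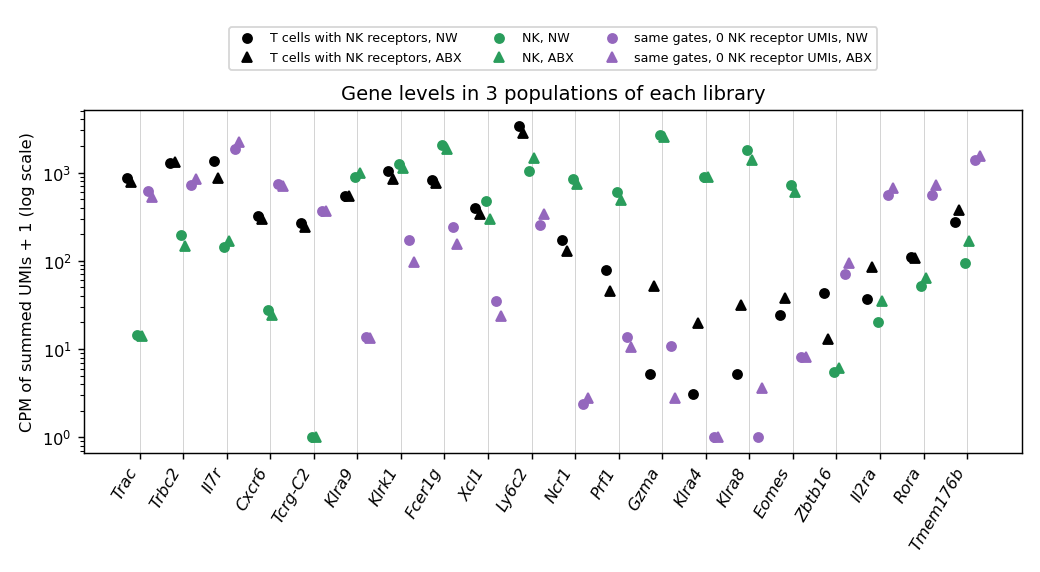
Levels (CPM of summed UMIs + 1, log scale) of 20 genes in NK-receptor T cells (black), NK cells (green) and T cells without NK receptor UMIs (purple), with circles for NW and triangles for ABX. Gzma, Klra4 and Klra8 stand high in NK cells and low in NK-receptor T cells, and Trac stands at 863 and 783 CPM in NK-receptor T cells and 13.5 and 12.9 in NK cells.

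Against T cells without NK receptor UMIs, the members were higher in type 1 effector genes. Of 2230 genes tested, 113 (5.07%) were higher and 123 (5.52%) lower in both libraries. All 12 tested genes of the NKT1 list (a list of type 1 effector genes) were higher, with medians of 1.96 and 2.03 against 0.01 and -0.02 over all genes tested. Xcl1, a chemokine for cross-presenting dendritic cells (chr1:164931644-164935527), stood at 401 and 336 CPM in NW and ABX members and 34.0 and 22.9 in the other T cells, with log2 differences of 3.56 (2.94 to 4.24) and 3.88 (3.30 to 4.52). Il2rb, the IL-2 and IL-15 receptor β chain, stood at 1736 and 1759 against 567 and 516 CPM (1.61 and 1.77). Ly6c2, found on memory and effector T cells, had differences of 3.74 and 3.06, and Cd7 and Atp1b1 of 3.14 and 2.96 and of 3.78 and 4.73. Receptors outside the rule were higher too: Klra9 at 5.41 and 5.47, Klrc1 (NKG2A) at 5.39 and 3.88, Klre1 at 3.68 and 4.67, Klrk1 (NKG2D) at 2.60 and 3.13 and Klrd1 (CD94) at 2.41 and 3.32. In the NK receptor list 11 of 14 tested genes were higher, of which Klra1, Klra7 and Klrb1c by the rule, and 1, Klrg1, was lower.

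Il1rl1, Il2ra, Pdcd1, Rora, Lmo4 and Serpinb1a were among the 123 genes that were lower. Il1rl1, the IL-33 receptor ST2, had log2 differences of -3.45 (-4.18 to -2.80) and -2.28 (-2.67 to -1.90), Il2ra (CD25) of -3.93 and -3.0 and Pdcd1 (PD-1) of -3.88 and -3.70. Rora stood at 110.2 and 106 CPM against 552 and 727 (-2.32 and -2.77), Lmo4 had differences of -2.91 and -2.89 and Serpinb1a of -3.30 and -2.96. Serpinb1a, Tmem176a and Tmem176b were the 3 tested genes of the NKT17 list, and all 3 were lower. Of the 8 genes of the NKT2 list 2 were tested, Gata3 and Icos, and both were lower. Ffar2, a receptor of short-chain fatty acids, had 0 and 9 UMIs in NW and ABX members. Of the genes the study centres on, Pparg had 3 and 4 UMIs in the members, and Foxp3 was set to 0 by the rule. The cytokine genes Il10 (0 and 0 UMIs), Il17a (0 and 0) and Il4 (2 and 0) were nearly or wholly undetected at this depth.

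Against CD8 T cells 57 of 1693 genes (3.37%) were higher and 14 (0.827%) lower, Cd8a and Cd8b1 among the latter by the rule. Klrk1 had log2 differences of 1.73 and 2.66, Xcl1 of 2.64 and 1.93, Fcer1g (the signalling γ chain of Fc and NK receptors) of 2.44 and 1.83 and Ly6c2 of 1.25 and 1.26. Lat, an adaptor of TCR signalling, was among the 14 lower genes. Against ILC1-like cells 30 of 1742 genes (1.72%) were higher and 56 (3.21%) lower, and 0 of 12 NKT1 genes differed in both libraries. Against γδ T cells 136 of 2692 genes (5.05%) were higher and 237 (8.8%) lower. Since the members were defined by counts in these cells, all of these are differences between chosen populations.

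The members also held transcripts of the TCR γ locus. Tcrg-C2 stood at 265 and 239 CPM in NW and ABX members, at 0 in NK cells (which allows up to 4.50 and 3.88 CPM), at 42.7 and 43.5 in CD8 T cells, at 368 and 366 in T cells without NK receptor UMIs and at 812 and 679 in γδ T cells. Trgv2, the only Vγ gene in the files, was detected in 20 of 124 (16.1%, 10.1 to 23.8) and 39 of 235 (16.6%, 12.1 to 22.0) members, 2.65% and 1.67% of CD8 T cells, 19.3% and 20.4% of T cells without NK receptor UMIs and 33.8% and 34.8% of γδ T cells. In a split chosen after the data were seen, 12 of 2546 genes (0.471%) were higher and 6 (0.236%) lower in both libraries in members with Trgv2. Tcrg-C2 was among the higher genes, at 749.6 against 159.9 CPM in NW and 715 against 162 in ABX, whereas Trac stood at 916 against 851 CPM in NW and 763 against 786 in ABX.

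The members were then divided by other measures to describe how they vary. In members with at least 15 TCRβ antibody UMIs, 8 of 2546 genes (0.314%) were higher and 6 (0.236%) lower in both libraries than in the other members. Gzmb (granzyme B) was among the lower ones, at 87.6 against 354 CPM in NW and 109 against 277 in ABX, and so was Ncr1, at 124 against 233 CPM in NW and 90.3 against 163 in ABX. The higher genes were Cd79a, Cst3, Fcgr2b, H2-Aa, H2-Eb1, Marcks, Mpeg1 and Copb1, of which most are known from B and myeloid cells, and 28 of the 32 Cd79a UMIs of NW members were in 1 cell. Cells with many TCRβ UMIs also had more UMIs of other antibodies, with NK-1.1 medians of 29 against 15 in NW and 34 against 13 in ABX and CD44 medians of 117 against 67.5 and 104 against 60. Trac stood at 806 against 941 CPM in NW and 796 against 771 in ABX and Trbc2 at 1288 against 1315 CPM in NW and 1264 against 1376 in ABX, so neither was among the genes that differed.

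Members with an Ncr1 UMI, a split chosen after the data were seen, had 14 genes (0.55%) higher and 14 (0.55%) lower, Ncr1 itself among the former. Gzmb stood at 511 against 61.2 CPM in NW and 413 against 110.4 in ABX, and Xcl1 at 559.6 against 330.3 CPM in NW and 550.0 against 247 in ABX. Tyrobp, the DAP12 adaptor of activating receptors, stood at 857 against 361 CPM in NW and 717 against 288 in ABX. Klrb1a, Atp1b1 and Tnfsf10 (TRAIL) were higher too. Tcrg-C2, at 131 against 324 CPM in NW and 130.1 against 284 in ABX, was lower, as were Tcrg-C4, Rora, Tmem176a and Tmem176b. Members with Ncr1 had medians of 4018 and 3579 UMIs and those without 3613 and 3262, and the part of depth in this split was not tested.

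The split by Ly49 was also chosen after the data were seen. It gave more differences than the other 3 splits, but the groups of the splits were of unlike size. Klra1 and Klra7 differ by the split itself. Members with a Klra1 or Klra7 UMI (93 and 178) had 28 genes (1.1%) higher and 21 (0.825%) lower than those without (31 and 57), which met the rule by Klrb1c alone. Klre1 was higher, at 386 against 128 CPM in NW and 386 against 96.2 in ABX, and so were Klrk1, at 1123 against 713 CPM in NW and 969.6 against 451 in ABX, and Cd7, at 569 against 329 CPM in NW and 532 against 153 in ABX. Ikzf2 and the egress receptor S1pr1 were higher as well. Ly6a (Sca-1) was lower, at 41.4 against 302 CPM in NW and 54.1 against 512 in ABX, and so was Cxcr6, at 240.1 against 603 CPM in NW and 197 against 604 in ABX. Rora, Gata3, Tmem176a, Tmem176b, Tcrg-C1, Rgs1 and Gzmb were lower too. Trac stood at 845 against 923 CPM in NW and 819 against 674 in ABX. Cells without these Ly49 UMIs had medians of 3425 and 3172 UMIs against 3712 and 3430.

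**Figure D3:**
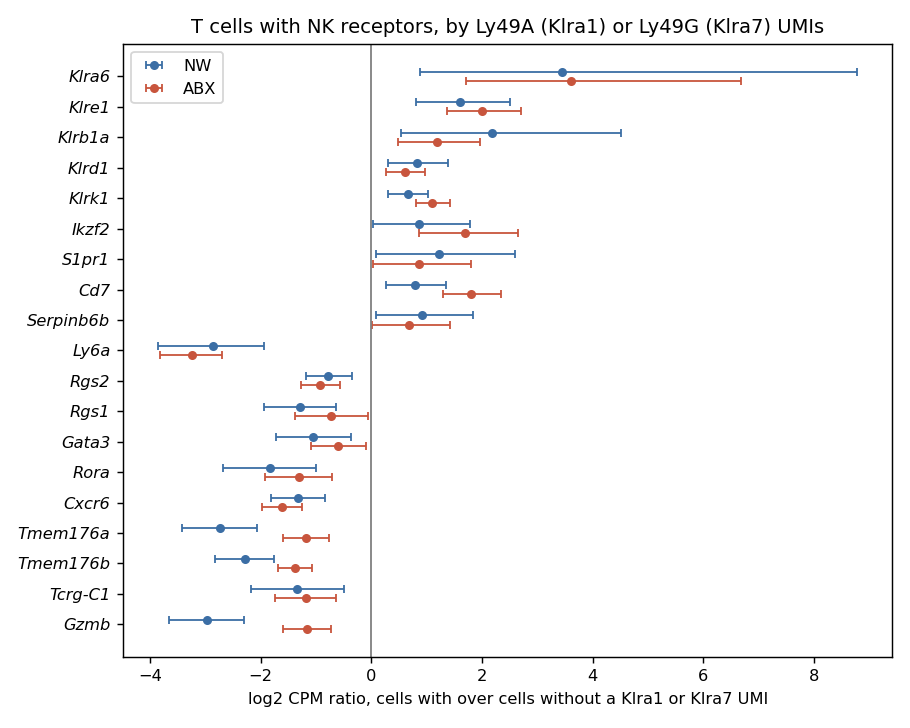
Log2 CPM ratio of 19 genes between members with and without a Klra1 or Klra7 UMI, by library, with exact 95% counting intervals. Klra6, Klre1 and Klrd1 lie to the right of 0 and Ly6a, Cxcr6 and Rora to the left of it in both libraries.

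The share of NK-receptor T cells was higher in ABX. They were 124 of 12474 cells in NW (0.994%, 0.827 to 1.18) and 235 of 12724 in ABX (1.85%, 1.62 to 2.1), a ratio of 1.86 (1.5 to 2.31) or 0.89 (0.58 to 1.21) on the log2 scale. Among T cells, taken as all cells with at least 2 CD3 and under 5 C1q UMIs, they were 8.28% of 1497 and 13.8% of 1705, a ratio of 1.66 (1.35 to 2.04). T cells without NK receptor UMIs had a ratio of 1.82 (1.52 to 2.19) among all cells, ILC1-like cells 1.62 (1.27 to 2.05), CD8 T cells 1.56 (1.24 to 1.97), γδ T cells 1.15 (0.971 to 1.37), NK cells 1.06 (0.875 to 1.28) and CD4 T cells 0.954 (0.843 to 1.08). The ratios of NK, γδ T and CD4 T cells thus had intervals that include 1. Shares of 1 library add up to the whole, and B cells had a ratio of 2.72 and macrophages of 0.731. Whether more of these cells or fewer of the others gave the share cannot be told apart.

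**Figure D4:**
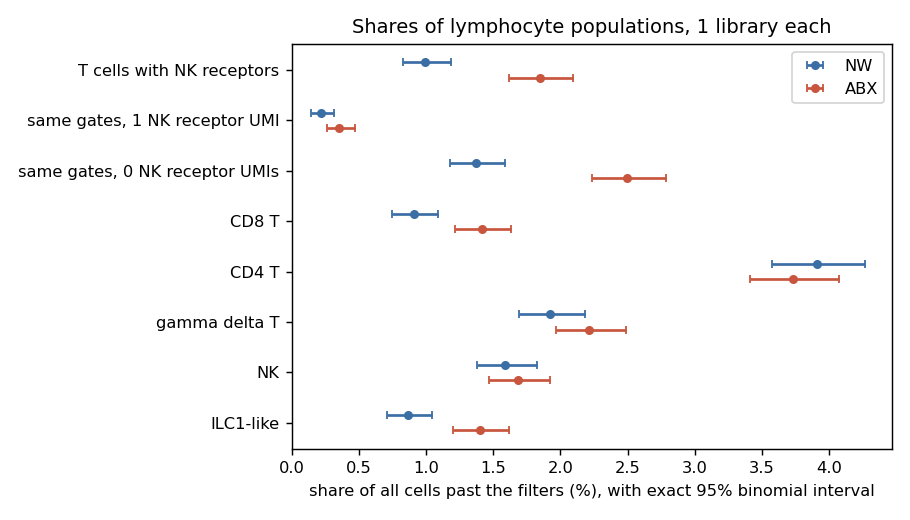
Share of cells past the filters in each population and library, with exact 95% binomial intervals for counting error. NK-receptor T cells were 0.994% of NW and 1.85% of ABX cells, and NK cells 1.59% and 1.68%.

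The ratio of shares changed where members with RNA of other cells were left out. C1q UMIs, which macrophages make, were seen in 79.8% of NW and 64.7% of ABX members, 69.2% and 57.9% of NK cells and 77.0% and 63.3% of CD8 T cells, and the rule's limit of 5 acts on them. With 0 C1q UMIs required, members were only 0.200% of NW and 0.652% of ABX cells, and the log2 ratio was 1.70 (1.06 to 2.35). Igkc, the immunoglobulin κ constant gene, was seen in 91.1% of NW and 96.2% of ABX members and in 86.9% and 96.7% of NK cells. An alternative added after the data were seen left out members with at least 5 UMIs of Igkc and plasma cell genes or of fibroblast genes (25 in NW and 106 in ABX), and the log2 ratio was then 0.35 (-0.02 to 0.73). This took members out of the numerator only, and at least 5 Igkc UMIs were counted in 14.1% of NW and 36.0% of ABX NK cells too, so the ratio had to fall. Leaving out the members with at least 5 UMIs of plasma cell genes without Igkc, of B cell genes or of fibroblast genes (1 and 8) gave 0.86. Members with at least 15 TCRβ antibody UMIs (68 and 98 cells) had a log2 ratio of 0.50 (0.05 to 0.94), and those below that limit (56 and 137) a log2 ratio of 1.26 (0.81 to 1.71).

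The share of members with at least 15 TCRβ UMIs was lower in ABX, at 41.7% against 54.8%, a log2 ratio of -0.40 (-0.71 to -0.08). With a limit of 20 UMIs the log2 ratio was -0.07 (-0.57 to 0.43), so the difference rests on the limit chosen. The medians of the TCRβ antibody in CD8 T and CD4 T cells were lower in ABX as well (46.5 against 59 and 35 against 47).

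Most genes of the members were at like levels in both libraries. Of 2546 genes with at least 100 UMIs over both, 59 (2.32%) were at least 1.5-fold higher and 56 (2.2%) at least 1.5-fold lower in ABX with intervals that exclude 1, which is 4.52% in all, and the median log2 ratio was -0.03. Ccl5, a chemokine of effector lymphocytes, stood at 5565 and 5488 CPM in NW and ABX (log2 ratio -0.02, -0.09 to 0.05), Il2rb at 1736 and 1759, Thy1 at 1247 and 1248, Gzmb at 199 and 199 and Tbx21, the type 1 transcription factor T-bet, at 163 and 150.2. The receptor genes Klra1 (483 and 480.1), Klra7 (494 and 540.4), Klra9 (543 and 546), Klrb1c (683 and 718) and Klrd1 (511 and 501) had no such difference either. Xcl1 stood at 401 and 336 (-0.25, -0.52 to 0.02). Of the 15 TCR genes, 13 were tested and 0 differed (median -0.12), and 0 of 6 MHC class I genes did (median 0.03).

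Il7r, Nr4a1, Dusp5, Rgs1, Klf2, Klrc1 and Ifng were among the 56 genes that were lower in ABX members. Il7r (chr15:9505788-9530176) stood at 1359 and 865 CPM in NW and ABX, with a log2 ratio of -0.65 (-0.80 to -0.50), and was detected in 70.2% and 56.6% of members, or in 50.9% and 39.0% when thinned to 1000 UMIs. It was the 1 of 4 tested common γ chain receptor genes that differed (median -0.09), and with 0 C1q UMIs required it stood at -0.17 (-0.51 to 0.18). With a limit of 1 or of 3 NK receptor UMIs, Il7r was also less than 1.5-fold lower. Nr4a1, an immediate early gene of TCR signalling (chr15:101254269-101274795), stood at 218 and 96.5 CPM (-1.18, -1.61 to -0.75), and Dusp5, a phosphatase induced by ERK signalling, at 204 and 102 (-1.0). Rgs1, a regulator of chemokine receptor signalling, stood at 184 and 98.6 (-0.90), Klf2, a transcription factor of lymphocyte egress, at 352 and 225 (-0.65) and Klrc1 at 297 and 194 (-0.61). Ifng stood at 151 and 86.6 (-0.80, -1.28 to -0.31) on 71 and 79 UMIs, but at 0.90 (-0.36 to 2.44) with 0 C1q UMIs required. It was the only 1 of 12 tested NKT1 genes (median -0.20) and of 7 cytokine and chemokine genes (median -0.10) that differed. Ctsc (-0.59) and Serpinb6b (-0.61) were the 2 of 8 cytotoxic granule genes that were lower (median -0.18). Under the 20 alternatives that gave each of these genes a value, Dusp5 still met the criterion in 18, Rgs1 in 17, Il7r and Nr4a1 in 15, Ifng in 14, Klf2 in 12, Klrc1 in 10, Serpinb6b in 9 and Ctsc in 8.

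Several of these ratios had the same direction in other populations. Nr4a1 stood at -1.31 in NK cells, -1.41 in CD8 T cells and -1.11 in CD4 T cells, and Rgs1 at -0.80, -1.42 and -1.16. Il7r stood at -0.62 in CD8 T cells, -0.41 in CD4 T cells and 0.25 (-0.14 to 0.65) in NK cells. Thinned to 1000 UMIs, Il7r was detected in 58.8% of NW and 69.8% of ABX T cells without NK receptor UMIs. The shares were 32.0% and 57.8% in T cells with 1 such UMI, 39.0% and 30.1% in ILC1-like cells and 81.4% and 75.1% in γδ T cells. Mtmr6, which had a ratio of -1.17 in members, stood at 0.11 in NK cells, 0.04 in CD8 T cells and 0.10 in CD4 T cells. The differences between populations were not tested. Of the 15 immediate early and heat shock genes tested, Nr4a1 was the 1 that differed (median -0.27), while Fos stood at 0.11, Jun at -0.03 and Hspa1a at 0.38.

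Klrb1a and Ly6a were among the 59 genes that were higher in ABX members. Klrb1a, a lectin-like NK receptor gene, stood at 102 and 162 CPM in NW and ABX (0.67, 0.19 to 1.17). Ly6a stood at 102 and 169 (0.73, 0.25 to 1.23), with 26.6% of its ABX UMIs in 1 cell, and at 0.19 (-0.32 to 0.72) without the cells above the 95th percentile of UMIs. Klrb1a stood at -0.26 and Ly6a at 1.29 in NK cells, and these differences between populations were not tested.

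**Figure D5:**
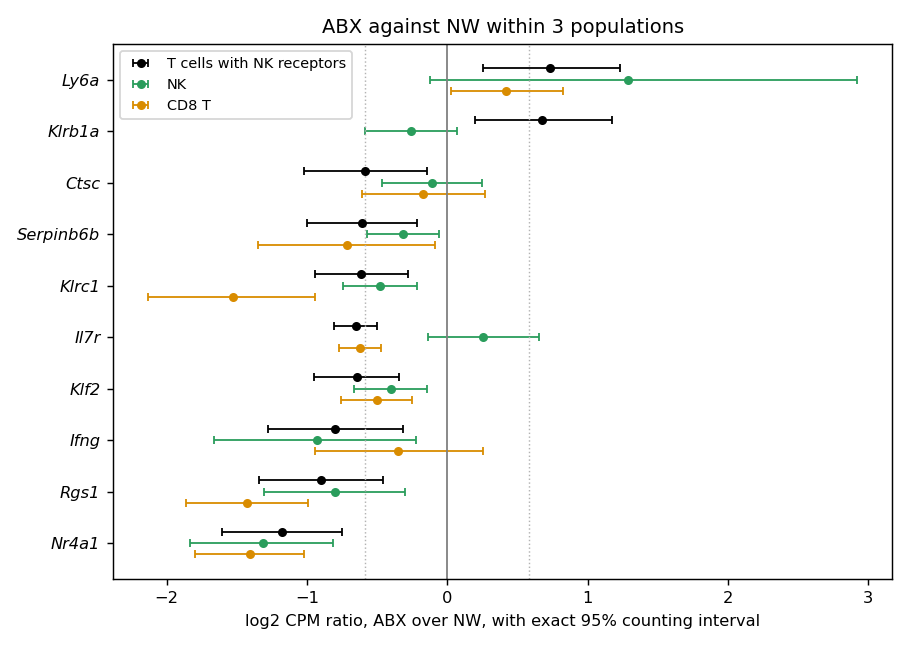
Log2 CPM ratio, ABX over NW, of 10 genes in NK-receptor T cells, NK cells and CD8 T cells, with exact 95% intervals for counting error and dotted lines at 1.5-fold. Nr4a1 and Rgs1 lie below 0 in all 3 populations, while Ly6a and Klrb1a lie above 0 in NK-receptor T cells. Klrb1a has no point for CD8 T cells, where it had 0 UMIs in NW.

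The 10 genes with the highest ratios are known from plasma cells, B cells and fibroblasts. Ighg2c had 0 and 1720 UMIs in NW and ABX, of which 1709 were in 1 cell, and 2 ABX cells held 2989 and 2642 of 6817 Igkc UMIs. Jchain stood at 53.0 and 694 CPM, and Mzb1, Iglc1, Iglc2, Igkv4-68 and Ighm were higher too. Of the 310 fibroblast marker UMIs in ABX (Col1a1, Dcn and Pdgfra) 290 were in 1 cell, and 91.1% of the Gsn UMIs in ABX were in a single cell. Without the members with plasma cell, B cell or fibroblast RNA, Gsn stood at -0.65 and Jchain at -0.25. Of the 10 lowest genes, Retnla, which macrophages make, stood at 475 and 206 CPM in members (-1.20), at 473 and 153 in NK cells and at 436 and 241 in CD8 T cells. The other 9 were Nr4a1, Mtmr6, Dusp5, Rgs1, Plekho2, Ifng, Fam46c, Ptpra and Zfp622, with ratios from -1.18 to -0.78.

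The 17 tested homing genes had a median of -0.26, with Klf2 and Rgs1 lower, and the 9 tested type 1 transcription genes had a median of -0.03. Of 19 tested NK receptor genes 1, Klrc1, was lower and 1, Klrb1a, higher (median 0.01). In the interferon-stimulated list of 13 genes, 4 were tested, and Ly6a was higher (median 0.04). The checkpoint list had 3 genes tested (median 0.05), the NKT2 list 2 (median -0.03), the NKT17 list 2 (median 0.31), the proliferation list 1 (-0.46) and the genes the study centres on 2 (median -0.19), with 0 that differed. No gene of the adipose regulatory NKT list reached 100 UMIs. Genes below that minimum included Ifit1 (18 and 9 UMIs in NW and ABX), Ifit3 (19 and 4) and Rsad2 (13 and 2). Their log2 ratios were -1.95 (-3.29 to -0.72) for Ifit1, -3.20 (-5.21 to -1.61) for Ifit3 and -3.65 (-6.84 to -1.51) for Rsad2. Of the other interferon-stimulated genes below the minimum, Ifi27l2a stood at 12.7 and 23.0 CPM and Bst2 at 36.0 and 37.3. The remaining ones had lower CPM in ABX. All of these values rest on few UMIs.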

How the data were processed

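Per the labels, the authors used the BD WTA Rhapsody Analysis Pipeline 1.8 on the GRCm38 genome and deposited a table of UMI counts per cell for each library, with columns for genes and 10 antibodies. The labels also name R 3.6.0 and Seurat 3.0.1. The counts were used as deposited, without batch integration and without a doublet caller. Instead, the results were repeated without cells holding markers of other cell types and without cells above the 95th percentile of UMIs. The markers included Lyz2, a macrophage gene seen in 61.3% of NW and 51.1% of ABX members. Leaving out cells by these markers was thus not a check for doublets alone. Cells with at least 500 gene UMIs, 200 genes and at most 25% mitochondrial UMIs were kept.

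UMIs were summed over the cells of a population in each library and expressed as CPM. Ratios have exact 95% intervals of a ratio of Poisson rates, shares have Clopper-Pearson intervals and ratios of shares have intervals on the log scale. These cover counting error only, and a gene counted as different met both the 1.5-fold limit and the interval. With 0 UMIs in a library, the ratio was set against 3 counts. Upper limits given for a share or level of 0 are 3 counts over the number of cells or UMIs and not Clopper-Pearson bounds. For the TCR β variable genes in NK cells those bounds are 1.85% in NW and 1.71% in ABX. Genes needed at least 100 UMIs. With 1 library per condition no p-value was computed. The counting steps were tested on simulated data. Computations used python 3.11.15 with numpy 2.4.6, scipy 1.17.1, pandas 2.3.3 and matplotlib 3.10.9.

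The members, 18 gene lists and markers of 16 cell classes were chosen with earlier results of these data known. Genes were named if they were in the rule or the markers, among up to 8 members of each list with the most UMIs, among list members that differed between ABX and NW, or among the 10 highest and 10 lowest in a comparison. The splits by Ncr1, Ly49 and Trgv2 and the genes named in them (Klra6, Tnfsf10, Tcrg-C4 and others), as well as genes outside that rule, were chosen after their values were seen. Gene coordinates are from GENCODE M21 (GRCm38) and promoter windows from RefSeq (GRCm38.p6). Some genes are not reported here.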

Additional observations from a re-analysis of the deposited data

How the results depend on the processing

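Each library is the only one of its condition, so no replicate could be left out. No paired analysis was possible because each condition has 1 library. The share of members was recomputed under 17 alternatives, of which 13 stayed within the counting interval. The log2 ratio moved from 0.89 to 1.70 with 0 C1q UMIs, to 0.47 without cells with markers of other types (which also leave the denominator), to 0.50 with at least 15 TCRβ UMIs and to 0.35 without members with plasma, immunoglobulin κ or fibroblast RNA (which left the numerator only). The share with at least 15 TCRβ UMIs moved from -0.40 to -0.73 in the last of these and to -0.070 at 20 UMIs.

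The counts of genes (59 higher and 56 lower) were 25 and 13 with 0 C1q UMIs, where 510 genes were tested and 0 of the 38 were shared with the reported genes. Members were then 0.200% of NW and 0.652% of ABX cells, and how many reported genes were among the 510 was not counted. The counts were 38 and 35 without cells with markers of other types and 24 and 34 without plasma, immunoglobulin κ or fibroblast RNA. They were 141 and 159 at a minimum of 50 UMIs (4676 tested) and 1 and 0 in cells thinned to 1000 UMIs (153 tested). There were 89 higher at 1 NK receptor UMI, 32 higher with at least 15 TCRβ UMIs and 37 lower without cells above the 95th percentile of UMIs. The higher genes were 51.3% of those that differed, 61.4% at 1 and 62.5% at 3 NK receptor UMIs, 65.8% with 0 C1q UMIs, 37.6% with at least 15 TCRβ UMIs, 62.4% without the highest member of each gene and 100% in thinned cells.

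Over 2489 gene values, 2231 stayed, 239 moved and 19 changed direction, and the cause was not tested. Gsn stood at -1.09 without markers of other types, -0.79 without cells above the 95th percentile, -1.38 without plasma, immunoglobulin κ or fibroblast RNA, -0.65 without plasma, B cell or fibroblast RNA and -0.21 without its highest member. Under the same settings in that order, apart from the first and last, Jchain stood at -0.15, -0.51 and -0.25, and at -0.41 with 3 NK receptor UMIs, -0.18 with at least 15 TCRβ UMIs and -0.55 in thinned cells. Ighm stood at -0.020 with 3 NK receptor UMIs, -0.051 with 0 C1q UMIs and -0.037 with at least 15 TCRβ UMIs. Iglc1 stood at -0.087 without markers of other types and -0.16 without plasma, immunoglobulin κ or fibroblast RNA, and Klrc1 at 0.025 in the latter. Ifng stood at 0.90 with 0 C1q UMIs and Mzb1 at -0.033 with 3 NK receptor UMIs. The 2 alternatives on plasma, B cell or fibroblast RNA and that on the highest member were chosen after seeing the data.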

Other observations

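Of the barcodes that failed the filters, 5188 in NW and 5061 in ABX, the members' rule was met by 0 in NW and by 1 in ABX, which failed by its mitochondrial share. Mki67, a marker of cycling cells, had 2 UMIs in NW members and 42 in ABX members, of which 26 were in 1 cell. The growth factor gene Csf2 had 2 and 23 UMIs (4.24 and 25.2 CPM) and Il2 9 and 28. ABX members held more gene UMIs in all (912363 against 471678), and Il2 stood at 19.1 (8.72 to 36.2) and 30.7 (20.4 to 44.4) CPM, with intervals that overlap.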
